A study of Mus musculus with 12 samples.

Results

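The 39 genes described here carry out or control glycolysis or are known targets of the response to low oxygen. They were chosen by symbol from the 77175 rows of a table of read counts for mouse genes, and all 39 symbols were found. Of these, 2 are glucose transporters, 15 are glycolytic enzymes, 3 handle lactate, 3 control glycolytic flux and 16 are other hypoxia targets.

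Messenger RNA was sequenced in bulk in 12 libraries, 3 for each of 4 groups. Every tumor grew in NOD-SCID mice, an immunodeficient strain, from B16-F10 mouse melanoma cells carrying the calcium indicator GCaMP6s under an EF1A promoter. All hosts received OT-1 CD8+ T cells activated beforehand with anti-CD3/anti-CD28 beads, and tumors were harvested on day 2 after the transfer. T cells labelled OVA and T cells labelled B16-F10, of genotype C57BL/6J-OT-I, were taken with CD8 beads from tumors of the line B16-F10-OVA, which also expresses ovalbumin from EF1A, and from tumors of B16-F10. Tumor cells labelled OVA and tumor cells labelled B16-F10 were sorted by GCaMP6s fluorescence from tumors of the same lines. Below, OVA and B16-F10 before a cell fraction name these labels. The OT-1 receptor recognises an ovalbumin peptide, so the OVA comparison sets tumors that carry the antigen of the T cells against tumors that lack it. Both lines stand for 1 parental melanoma. Host age is not given in the labels, nor do they say whether replicate libraries are from different mice, so p-values reflect only the spread among the libraries at hand, possibly technical.

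Glycolysis turns glucose into pyruvate in the cytosol, and pyruvate is then burned in mitochondria or reduced to lactate and exported. The hypoxia-inducible factors (HIF) are pairs of an oxygen-regulated alpha subunit and ARNT that bind a short DNA core and raise transcription of glucose transporters, most glycolytic enzymes and many other genes. When oxygen is present, prolyl hydroxylases mark the alpha subunit for destruction by VHL. Activated CD8+ T cells and melanoma cells are both known for high glucose use.

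Library totals ran from 15494683 to 33263730 counts. The lowest count of any of the 39 genes in any library was 19, so each was measured in every library and passed the filter on low counts. Levels are given as CPM, the count scaled to the library total, as the mean ± SD of 3 libraries. The SD within a group had a median of 1.69% of the mean over the 39 genes and 4 groups, and was at most 18.9%. Together the 39 genes took 1.20% of counts in OVA T cells, 0.882% in B16-F10 T cells, 1.99% in OVA tumor cells and 3.57% in B16-F10 tumor cells. Mitochondrial genes took 2.78%, 3.31%, 6.5% and 1.76% in the same order of groups.

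Markers of other cells were present in every group and lowest in B16-F10 tumor cells. The 10 T cell markers summed to 817, 850, 116 and 4.59 CPM in OVA T cells, B16-F10 T cells, OVA tumor cells and B16-F10 tumor cells, and Cd3e, Trac, Trbc2 and Cd2 had 0 counts in the last. The 12 melanoma cell markers summed to 132, 304, 11890 and 27601 CPM in that order. The 10 endothelial cell markers summed to 8453, 9242, 3676 and 43.0 CPM and the 8 fibroblast markers to 4909, 5421, 2086 and 84.8 CPM. T cell libraries therefore held more endothelial and fibroblast marker counts than T cell marker counts. Below, T cells and tumor cells name the libraries of these fractions, and levels in them are not levels of those cells alone. The 5 erythroid markers summed to 94.8, 135, 24.7 and 0.0601 CPM. The 10 macrophage markers summed to 265, 348, 1840 and 13.1 CPM, and the 5 neutrophil markers to 72.6, 42.2, 239 and 1.23 CPM. Fewer cells of a type and less RNA per cell cannot be told apart in bulk libraries. The part of these other cells in the results that follow was not tested.

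In the T cell comparison 13 of 15 glycolytic enzymes were higher under the OVA label, and Pfkm and Eno2 were lower. Most of these T cell changes were small, since by edgeR's test against a 1.5-fold change Hk2 and Eno1 alone of the 15 were called. In the tumor cell comparison 14 of 15 were lower under TMM scaling and only Eno2 was higher, but 11 of the 14 had positive fold changes under scaling to melanoma cell markers. Both glucose transporters and Pfkfb3, a driver of glycolytic flux, were higher under the OVA label in both fractions. The 16 hypoxia targets split, with 11 higher, 3 lower and 2 not called in T cells, and with 9 higher and 7 lower in tumor cells under TMM, where marker scaling gave all 7 a positive value. Of all genes tested, 23.7% were called higher and 22.4% lower in OVA T cells, and 42% and 37.4% in OVA tumor cells. Nothing particular to the hypoxia targets is read from their split in tumor cells.

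Calls use the edgeR quasi-likelihood F test with TMM scaling, which corrects library totals for composition, and a Benjamini-Hochberg adjusted p of at most 0.05. Of the 39 genes, 15 were higher and 24 lower in OVA tumor cells, against 42% and 37.4% of the 17418 genes tested, while melanoma marker scaling gave 34 higher and 4 lower. The median log2 fold change was -0.29 over the 39 genes and 0.04 over all genes tested. In OVA T cells 29 were higher and 5 lower, with 5 not called, against 23.7% and 22.4% of the 16536 genes tested. Here the median log2 fold change was 0.29 over the 39 genes and -0.01 over all genes. The test against 1.5-fold left 6 higher and 0 lower in T cells. It called 1059 of all 16536 genes there, and 61.9% of those calls were higher. With library totals alone as the scaling, 38.8% of all calls in T cells were higher, against 51.3% under TMM. Each fraction had its own fit for the OVA label, on 6 libraries.

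**Figure D1:**
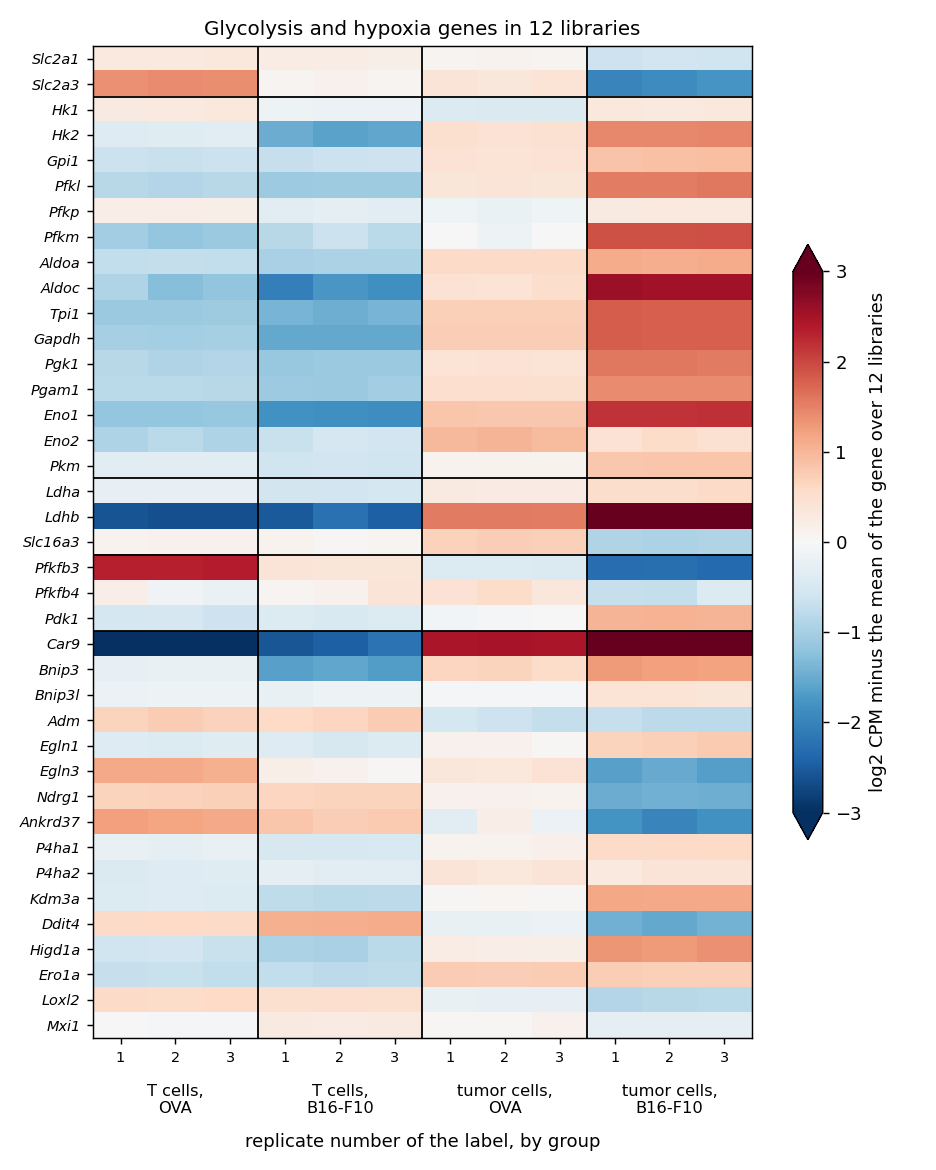
Level of each of the 39 genes (rows, grouped by role) in the 12 libraries (columns, grouped by cell fraction and label), as log2 CPM minus the mean of the gene over the 12 libraries. The 3 libraries of a group look alike, and most enzyme rows are highest in B16-F10 tumor cells, while Slc2a3, Pfkfb3, Egln3, Ndrg1 and Ankrd37 are lowest there.

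The heatmap of the 12 libraries shows these groups side by side, with glycolytic enzymes and several hypoxia targets running in opposite directions. The plot of both OVA effects gives each gene its fold change in T cells and in tumor cells.

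**Figure D2:**
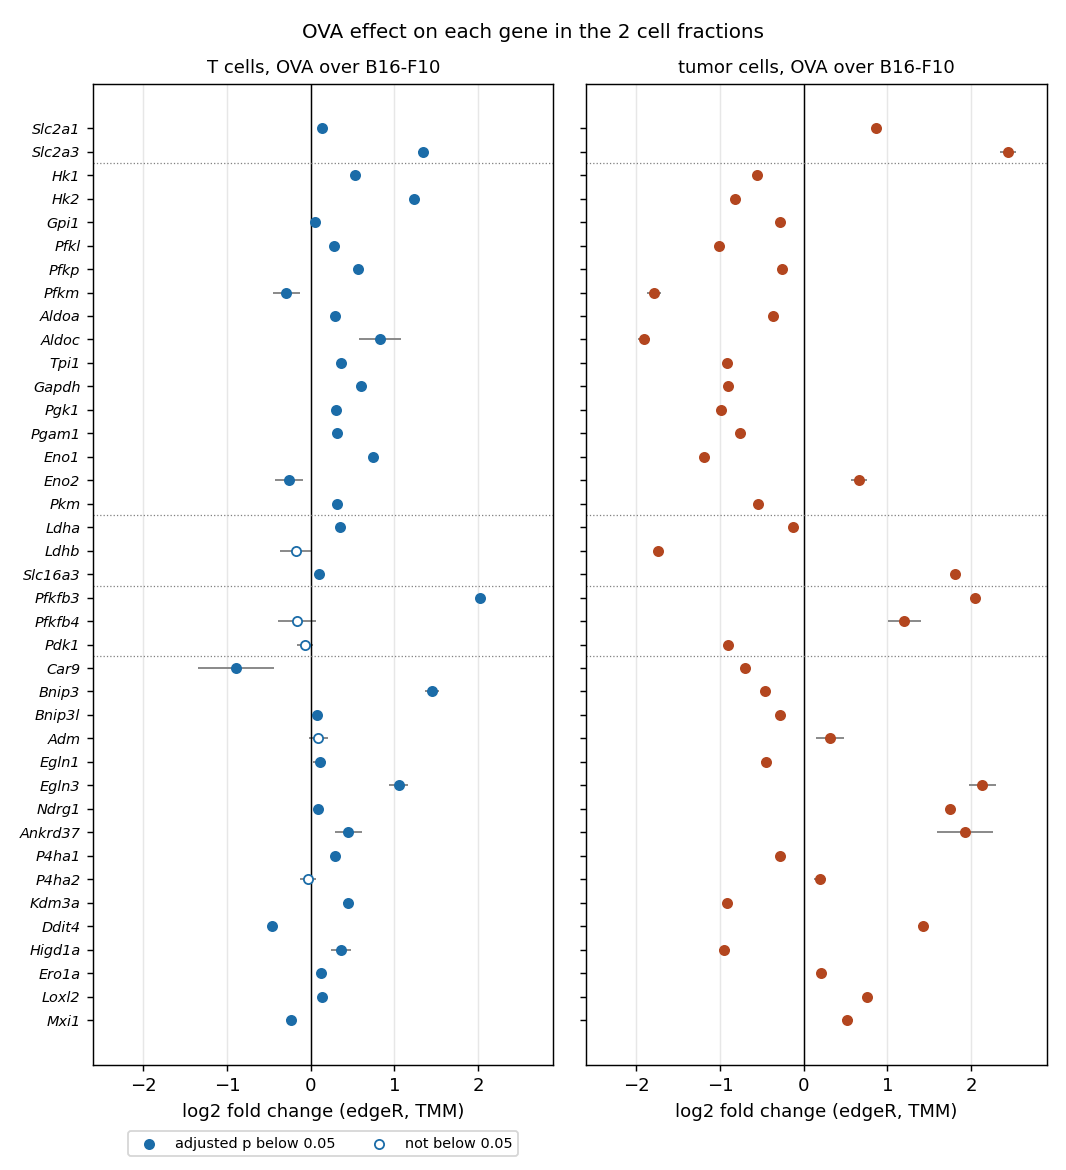
Log2 fold change of OVA over B16-F10 (x axis) for each gene (rows, grouped by role), in T cells (left) and in tumor cells (right), with bars of 2 SE. Filled points passed the adjusted p threshold, and most enzymes lie right of 0 in T cells and left of 0 in tumor cells under TMM scaling, where melanoma marker scaling would put 11 of the 14 above 0.

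Glucose uptake genes were higher under the OVA label in both fractions. Slc2a3 encodes GLUT3, a high-affinity glucose transporter, and Slc2a1 encodes GLUT1, the transporter of most proliferating cells. Slc2a3 had 131, 135 and 133 CPM in the libraries of OVA T cells, against 54.0, 55.8 and 54.1 CPM in B16-F10 T cells. It had 66.9, 64.5 and 67.8 CPM in OVA tumor cells, against 12.8, 13.8 and 14.9 CPM in B16-F10 tumor cells. No library of one label overlapped with the other label in either fraction. The log2 fold change of Slc2a3 was 1.34 (SE 0.03) in T cells and 2.44 (SE 0.05) in tumor cells, with edgeR adjusted p = 1.82e-23 and 2.41e-22. Slc2a1 averaged 294 ± 2.20 CPM in OVA T cells and 278 ± 4.34 CPM in B16-F10 T cells, a log2 fold change of 0.14 (SE 0.02). Its averages in tumor cells were 257 ± 3.08 CPM under the OVA label and 159 ± 2.37 CPM under the B16-F10 label, a log2 fold change of 0.86 (SE 0.02).

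The hexokinases, which trap glucose in the cell as glucose 6-phosphate, moved in opposite directions in the 2 fractions under TMM scaling, but in tumor cells both were above 0 under melanoma marker scaling, Hk1 at 0.48 and Hk2 at 0.22. Hk2 encodes the inducible hexokinase that HIF and MYC are known to raise. It had 160, 161 and 164 CPM in OVA T cells, against 74.3, 68.8 and 70.2 CPM in B16-F10 T cells. Tumor cells had 290, 280 and 286 CPM under the OVA label, against 564, 569 and 575 CPM under the B16-F10 label. Hk2 was thus highest in B16-F10 tumor cells and lowest in T cells of the same label, and no 2 groups overlapped. Its log2 fold change was 1.24 (SE 0.03) in T cells and -0.82 (SE 0.02) in tumor cells, and the difference between the effects was 2.06 (edgeR adjusted p = 1e-26). Hk1, the housekeeping hexokinase, had log2 fold changes of 0.53 (SE 0.02) in T cells and -0.56 (SE 0.02) in tumor cells.

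Among the phosphofructokinases, which commit sugar to glycolysis, the muscle-type subunit Pfkm had the steepest fall. Pfkm had 23.6, 21.4 and 24.0 CPM in OVA tumor cells, against 89.7, 89.6 and 91.2 CPM in B16-F10 tumor cells, with no overlap. Its log2 fold change was -1.79 (SE 0.04) there and -0.29 (SE 0.08) in T cells, where it averaged 11.1 ± 0.430 CPM under the OVA label and 14.1 ± 1.07 CPM under the B16-F10 label. The liver-type Pfkl fell by 1.01 on the log2 scale in tumor cells and the platelet-type Pfkp by 0.26, while in T cells they rose by 0.28 and 0.57; under melanoma marker scaling their tumor cell values were 0.03, not called, and 0.78. Aldoc, the brain-type aldolase, fell by 1.91 (SE 0.04) in tumor cells, to 24.1 ± 1.08 CPM under the OVA label against 102 ± 2.02 CPM under the B16-F10 label. It was scarce in the T cell libraries. They had 8.11 ± 1.11 CPM of Aldoc under the OVA label and 4.79 ± 0.538 CPM under the B16-F10 label, a log2 fold change of 0.83 (SE 0.12). Aldoa, the main aldolase, had log2 fold changes of 0.29 (SE 0.01) in T cells and -0.37 (SE 0.01) in tumor cells, where marker scaling gave 0.68.

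The abundant enzymes of the lower part of the pathway shared this pattern under TMM scaling, while under melanoma marker scaling only Eno1 among them stayed below 0 in tumor cells. Gapdh, which makes the first NADH of the pathway and is often taken as a constant control gene, had 1193, 1188 and 1207 CPM in OVA T cells, against 828, 824 and 818 CPM in B16-F10 T cells. Tumor cells had 3968, 3967 and 3974 CPM under the OVA label, against 8402, 8270 and 8347 CPM under the B16-F10 label. The 4 groups did not overlap, and the log2 fold changes were 0.60 (SE 0.01) in T cells and -0.90 (SE 0.01) in tumor cells, the last turning to 0.14 under marker scaling. Eno1, the common enolase, averaged 575 ± 6.59 CPM in OVA T cells and 356 ± 3.47 CPM in B16-F10 T cells. Its averages in tumor cells were 2255 ± 15.3 CPM under the OVA label and 5764 ± 55.9 CPM under the B16-F10 label. Eno1 had the largest fall of the abundant enzymes in tumor cells, with a log2 fold change of -1.19 (SE 0.01) under TMM and -0.14 under marker scaling, against 0.75 (SE 0.02) in T cells. Pgk1, Tpi1, Pgam1 and Pkm, which catalyse other steps of that part, had log2 fold changes of 0.30, 0.36, 0.32 and 0.31 in T cells and -0.99, -0.92, -0.76 and -0.55 in tumor cells; marker scaling gave 0.05, 0.12, 0.28 and 0.50 there. Gpi1, the isomerase after hexokinase, had 0.05 in T cells and -0.29 in tumor cells, the last turning to 0.76 under marker scaling.

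Eno2, the neuron-type enolase, ran against the other enzymes. It averaged 34.7 ± 0.710 CPM in OVA tumor cells and 24.6 ± 0.986 CPM in B16-F10 tumor cells, a log2 fold change of 0.66 (SE 0.05). In T cells it averaged 9.51 ± 0.474 CPM under the OVA label and 11.8 ± 0.701 CPM under the B16-F10 label, a log2 fold change of -0.26 (SE 0.09) with edgeR adjusted p = 0.0131, a call that leaving out either of 2 libraries ended. Counts of 2 enzymes could be split with near-identical copies, since Eno1b held 3.57% as many counts as Eno1 and Pgam1-ps2 held 7.78% as many as Pgam1. In the GRCm38 annotation Gm49759 covers 15.3% of the exonic length of Pkm on the same strand.

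The lactate genes moved apart in tumor cells. Ldhb encodes the lactate dehydrogenase subunit that favours pyruvate formation, Ldha the subunit that favours lactate, and Slc16a3 the lactate exporter MCT4. Ldhb had 146, 146 and 145 CPM in OVA tumor cells, against 552, 535 and 555 CPM in B16-F10 tumor cells, and its log2 fold change was -1.74 (SE 0.02). Slc16a3 had 211, 217 and 215 CPM in OVA tumor cells, against 69.3, 67.2 and 70.0 CPM in B16-F10 tumor cells, a log2 fold change of 1.81 (SE 0.02). Ldha lay between them, at 1121 ± 7.95 CPM under the OVA label and 1374 ± 19.0 CPM under the B16-F10 label, a log2 fold change of -0.13 (SE 0.01) that marker scaling turned to 0.92. Under marker scaling the ratio of OVA to B16-F10 tumor cells was 7.24 for Slc16a3, against 3.50 under TMM, and 0.618 for Ldhb, against 0.299. The OVA effects on these 3 genes in T cells were small, with log2 fold changes of 0.35 for Ldha, 0.10 for Slc16a3 and -0.17 for Ldhb, and the last was not called (edgeR adjusted p = 0.163).

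Pfkfb3, which makes the allosteric activator of phosphofructokinase and so raises glycolytic flux, had the highest OVA effect of the 39 genes in T cells. Pfkfb3 (ENSMUSG00000026773) had 1896, 1894 and 1913 CPM in OVA T cells, against 494, 484 and 480 CPM in B16-F10 T cells. It had 284, 285 and 279 CPM in OVA tumor cells, against 77.2, 78.2 and 74.6 CPM in B16-F10 tumor cells. All 4 groups were apart, and the rise was 4.06-fold in T cells and 4.13-fold in tumor cells. The log2 fold changes were 2.02 (SE 0.01) and 2.05 (SE 0.02), and their difference of -0.03 (SE 0.03) was not called (edgeR adjusted p = 0.362). Under scaling by library totals alone that difference was 0.09 and was called, and melanoma marker scaling put the tumor cell rise of Pfkfb3 at 8.55-fold. Its relative Pfkfb4 rose by 1.20 (SE 0.10) in tumor cells, at 10.4 ± 0.767 CPM under the OVA label and 5.08 ± 0.626 CPM under the B16-F10 label, and was not called in T cells (log2 fold change -0.16, SE 0.11). Pdk1, a kinase of pyruvate dehydrogenase, had -0.07 (SE 0.05) in T cells, where it was not called. In tumor cells it had -0.90 (SE 0.03), and marker scaling gave 0.15.

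**Figure D3:**
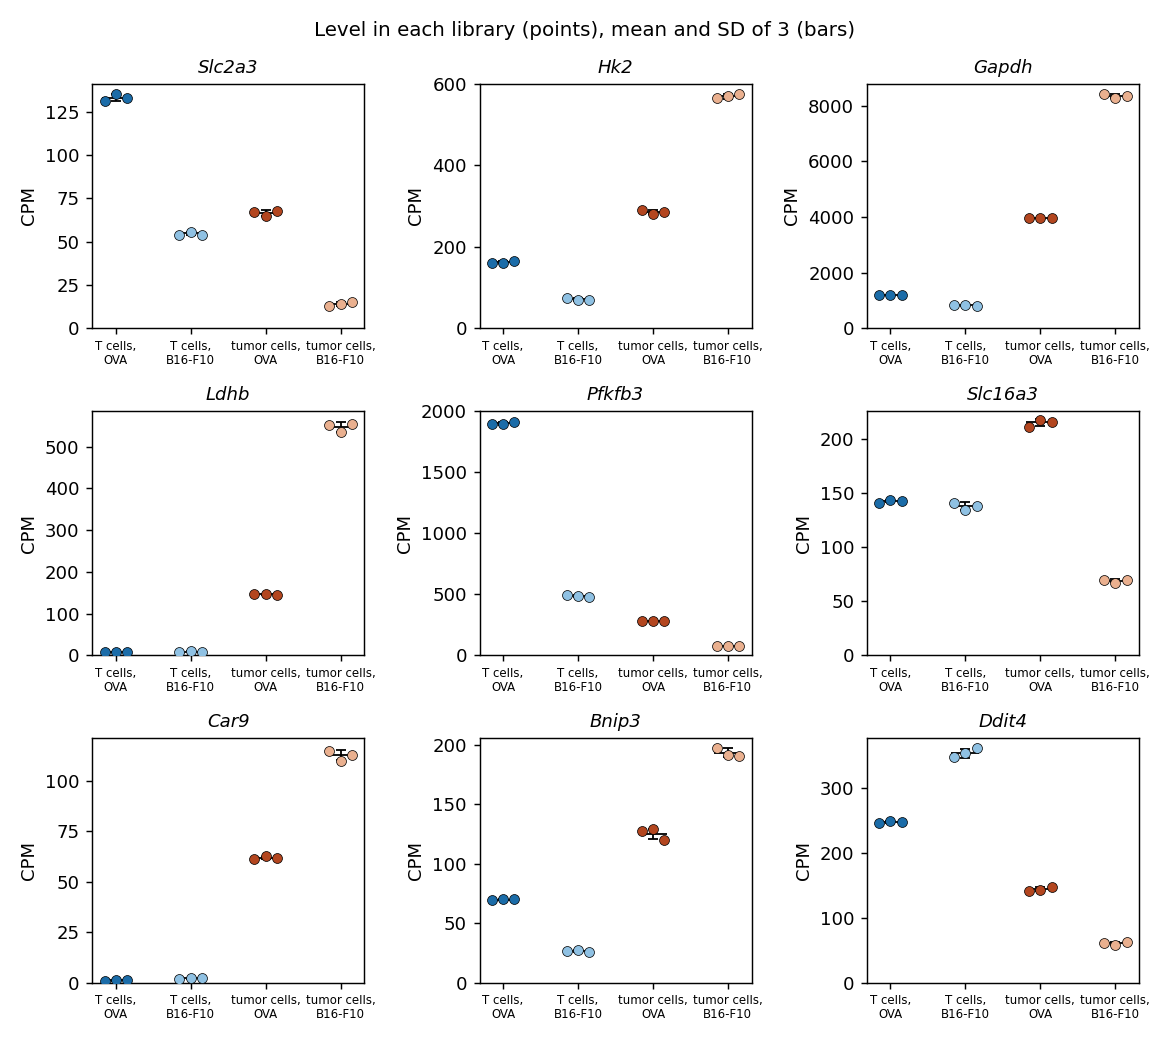
CPM (y axis, from 0) of 9 genes in each library of OVA T cells, B16-F10 T cells, OVA tumor cells and B16-F10 tumor cells; points are libraries, bars the mean and SD of 3. Pfkfb3 stands at 1894 to 1913 CPM in OVA T cells, far above the other 3 groups, while Gapdh, Ldhb, Hk2 and Car9 are highest in B16-F10 tumor cells.

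The plot of levels by library shows how small the spread within a group is beside the distance between groups. It also shows that the highest group is T cells for Slc2a3, Pfkfb3 and Ddit4 and tumor cells for the other 6 genes.

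Hypoxia targets that rose most in tumor cells under the OVA label were Egln3, Ankrd37, Ndrg1 and Ddit4. Egln3, a HIF prolyl hydroxylase that HIF itself induces, had 33.0, 32.9 and 31.2 CPM in OVA T cells, against 16.9, 16.4 and 15.3 CPM in B16-F10 T cells. It had 18.8, 18.5 and 20.3 CPM in OVA tumor cells, against 4.79, 5.26 and 4.75 CPM in B16-F10 tumor cells. The labels did not overlap in either fraction, and the log2 fold changes were 1.05 (SE 0.06) in T cells and 2.13 (SE 0.08) in tumor cells. Its paralogue Egln1, the main oxygen sensor of the family, had -0.45 (SE 0.03) in tumor cells (0.60 under marker scaling) and 0.11 (SE 0.04) in T cells, and the T cell call did not survive leaving out either of 2 libraries. Ndrg1, a stress-responsive gene used as a hypoxia marker, averaged 246 ± 3.40 CPM in OVA tumor cells and 81.8 ± 1.04 CPM in B16-F10 tumor cells, a log2 fold change of 1.75 (SE 0.02). In T cells it averaged 366 ± 5.37 CPM under the OVA label and 359 ± 2.11 CPM under the B16-F10 label, a log2 fold change of 0.09 (SE 0.02). Ankrd37, a small ankyrin-repeat gene, averaged 5.45 ± 1.03 CPM in OVA tumor cells and 1.58 ± 0.102 CPM in B16-F10 tumor cells, a log2 fold change of 1.93 (SE 0.17). Lrp2bp overlaps 22.7% of the exonic length of Ankrd37 on the opposite strand in the GRCm38 annotation and averaged 0.478 CPM over the 12 libraries, and Ufsp2 overlaps 3.7% on the opposite strand and averaged 22.2 CPM, against 7.49 CPM for Ankrd37.

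Ddit4, an inhibitor of mTORC1 also called REDD1, moved in opposite directions. It had 245, 249 and 247 CPM in OVA T cells, against 347, 353 and 361 CPM in B16-F10 T cells. Tumor cells had 141, 143 and 147 CPM under the OVA label, against 61.2, 57.3 and 62.5 CPM under the B16-F10 label. The groups were all apart, with log2 fold changes of -0.46 (SE 0.02) in T cells and 1.42 (SE 0.03) in tumor cells. Mxi1, a MYC antagonist, had the same signs, at -0.24 (SE 0.03) in T cells and 0.52 (SE 0.03) in tumor cells.

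Bnip3, a mitophagy receptor, was the hypoxia target with the highest OVA effect in T cells. It had 69.2, 69.9 and 70.4 CPM in OVA T cells, against 26.4, 27.7 and 25.8 CPM in B16-F10 T cells. Tumor cells had 127, 129 and 120 CPM under the OVA label, against 197, 191 and 190 CPM under the B16-F10 label. The groups did not overlap, and the log2 fold changes were 1.45 (SE 0.04) in T cells and -0.46 (SE 0.02) in tumor cells, where marker scaling gave 0.59. Its paralogue Bnip3l had 0.07 (SE 0.03) in T cells, at edgeR adjusted p = 0.0489, and that call was lost without any 1 of 5 of the 6 libraries. Car9, the tumor-associated carbonic anhydrase and a classical HIF target, was lower under the OVA label in both fractions under TMM, and had 0.35 in tumor cells under marker scaling. It averaged 61.9 ± 0.566 CPM in OVA tumor cells and 113 ± 2.5 CPM in B16-F10 tumor cells, a log2 fold change of -0.70 (SE 0.03). T cells had 1.11 ± 0.0787 CPM under the OVA label and 2.15 ± 0.273 CPM under the B16-F10 label, a log2 fold change of -0.89 (SE 0.23). Car9 counts there went down to 19 in a library, and the test against a 1.5-fold change did not call it. Melanoma cell markers were also lower in OVA T cells, at a median log2 fold change of -0.95. The part of melanoma cells in the Car9 counts of T cells was not tested.

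The remaining hypoxia targets had log2 fold changes between -0.95 and 0.76 in tumor cells and between -0.03 and 0.44 in T cells. Kdm3a, a histone demethylase, and Higd1a, a mitochondrial protein, had log2 fold changes of -0.92 and -0.95 in tumor cells and 0.44 and 0.36 in T cells; marker scaling turned the tumor cell values to 0.12 and 0.10. P4ha1, a collagen prolyl hydroxylase, had -0.28 in tumor cells (0.76 under marker scaling) and 0.29 in T cells, while P4ha2 had 0.19 in tumor cells and was not called in T cells (-0.03). Loxl2, a collagen crosslinking enzyme, had 0.76 in tumor cells and 0.14 in T cells. Fibroblast markers were also higher in OVA tumor cells, while they summed to 4909 CPM in OVA T cells and 5421 CPM in B16-F10 T cells. The part of fibroblasts in the Loxl2 counts was not tested. Adm, the vasodilator adrenomedullin, had 0.31 in tumor cells and 0.09 in T cells, the last not called. Ero1a, an oxidase of the endoplasmic reticulum, had 0.20 in tumor cells and 0.12 in T cells. With library totals as the scaling the tumor cell calls of Adm (0.14), P4ha2 (0.02) and Ero1a (0.03) were lost.

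HIF binds a core whose letters are ACGTG or GCGTG, and promoters of the 39 genes were searched for both on either strand. RefSeq promoters of build GRCm38.p6, from 250 bases before to 50 after each start, were at hand for 35 of the 39 genes, as 52 promoters. ACGTG was present in 53.8% of the 52, against 19.6% of all 32851 promoters of the same length, and GCGTG in 55.8% against 32.4%. A promoter with CACGTG, which holds ACGTG on both strands, counts once. Either core was in 78.8% of the 52 against 43.8% of all. The 39 genes include known HIF targets, so these shares are a description only. The 6 promoters that follow have ACGTG or its reverse complement CACGT in capitals. They were taken only from genes with a single promoter that holds ACGTG, so its presence in all 6 follows from the choice. Among such genes, 3 rose most and 3 fell most in OVA tumor cells under TMM scaling. The last 3 were above 0 under melanoma marker scaling.
Egln3, which rose by 2.13, chr12:54203825-54204124, minus strand: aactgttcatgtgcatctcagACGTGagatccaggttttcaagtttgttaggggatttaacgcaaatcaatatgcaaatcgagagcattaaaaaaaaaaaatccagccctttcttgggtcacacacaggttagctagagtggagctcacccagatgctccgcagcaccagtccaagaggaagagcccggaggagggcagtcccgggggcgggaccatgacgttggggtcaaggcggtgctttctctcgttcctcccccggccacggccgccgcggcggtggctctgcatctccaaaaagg
Ankrd37, which rose by 1.93, chr8:45999801-46000100, minus strand: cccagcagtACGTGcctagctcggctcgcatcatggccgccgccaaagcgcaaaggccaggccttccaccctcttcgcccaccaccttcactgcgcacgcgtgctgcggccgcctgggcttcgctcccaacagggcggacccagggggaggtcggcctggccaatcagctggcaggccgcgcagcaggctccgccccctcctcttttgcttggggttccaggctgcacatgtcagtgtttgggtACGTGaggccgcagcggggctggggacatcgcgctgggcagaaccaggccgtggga
Slc16a3, which rose by 1.81, chr11:120948817-120949116, plus strand: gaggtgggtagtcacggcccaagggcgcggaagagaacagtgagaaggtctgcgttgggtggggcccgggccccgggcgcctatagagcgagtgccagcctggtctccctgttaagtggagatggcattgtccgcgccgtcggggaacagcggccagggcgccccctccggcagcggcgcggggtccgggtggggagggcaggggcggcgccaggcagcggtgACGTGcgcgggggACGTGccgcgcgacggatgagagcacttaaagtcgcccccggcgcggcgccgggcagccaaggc
Pgk1, which fell by 0.99, chrX:106186850-106187149, plus strand: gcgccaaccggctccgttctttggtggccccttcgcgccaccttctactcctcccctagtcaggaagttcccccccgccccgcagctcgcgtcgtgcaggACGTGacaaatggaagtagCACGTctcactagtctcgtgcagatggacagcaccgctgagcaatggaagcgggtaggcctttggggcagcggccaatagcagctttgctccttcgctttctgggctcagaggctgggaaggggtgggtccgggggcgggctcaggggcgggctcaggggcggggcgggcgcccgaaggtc
Higd1a, which fell by 0.95, chr9:121857747-121858046, minus strand: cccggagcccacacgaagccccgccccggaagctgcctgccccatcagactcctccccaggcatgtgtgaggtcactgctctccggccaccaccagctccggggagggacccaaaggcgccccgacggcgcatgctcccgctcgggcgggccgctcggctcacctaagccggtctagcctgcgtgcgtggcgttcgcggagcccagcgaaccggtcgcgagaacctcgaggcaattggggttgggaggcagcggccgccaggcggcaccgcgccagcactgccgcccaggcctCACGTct
Gapdh, which fell by 0.90, chr6:125165724-125166023, minus strand: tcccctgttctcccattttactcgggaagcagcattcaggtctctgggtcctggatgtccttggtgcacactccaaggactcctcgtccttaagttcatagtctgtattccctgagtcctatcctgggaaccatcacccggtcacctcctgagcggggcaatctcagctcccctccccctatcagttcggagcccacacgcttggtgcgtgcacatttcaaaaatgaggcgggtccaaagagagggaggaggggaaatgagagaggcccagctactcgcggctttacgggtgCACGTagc
Egln3, Gapdh and Higd1a have 1 copy of ACGTG each on either strand, and Ankrd37, Slc16a3 and Pgk1 have 2. A match of letters is a description and shows no binding. No promoter was in the table for Slc2a3, Loxl2, Ndrg1 and Bnip3l.

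The difference between the OVA effects, T cells minus tumor cells, was tested in 1 fit over all 12 libraries. It was called for 37 of the 39 genes, with 23 higher and 14 lower, against 27.7% and 41.3% of the 18562 genes tested. DESeq2 did not call 3 of the 14 lower ones, Adm, P4ha2 and Ero1a. The median difference was 0.55 over the 39 genes and -0.16 over all genes. Of the 15 enzymes 14 were higher, led by Aldoc at 2.75 (SE 0.12), Hk2 at 2.06 (SE 0.03) and Eno1 at 1.93 (SE 0.02). Bnip3, at 1.90 (SE 0.05), was also among the highest 4. The lowest were Ddit4 at -1.88 (SE 0.03), Slc16a3 at -1.71 (SE 0.03), Ndrg1 at -1.67 (SE 0.03) and Ankrd37 at -1.47 (SE 0.18). Pfkfb3 and Car9 were not called, with differences of -0.03 and -0.19 (SE 0.18). Markers of other cell types moved with the label too. In OVA tumor cells all 43 markers of T cells, endothelial cells, fibroblasts, macrophages and neutrophils were higher, and 11 of 12 melanoma cell markers were lower. In OVA T cells all 11 melanoma cell markers tested, 7 of 10 macrophage markers and 6 of 10 endothelial markers were lower, while 6 of 10 T cell markers and 4 of 5 neutrophil markers were higher. The part of these markers' cells in the differences was not tested, and marker scaling was applied to tumor cells alone, not to this difference.

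T cell libraries were set against tumor cell libraries of the same label. These comparisons share libraries with the OVA comparisons and with each other, so their values are given side by side. Under the OVA label 11 genes were higher and 26 lower in T cells, with 2 not called, against 37.3% and 40.2% of the 18562 genes tested. Under the B16-F10 label 12 were higher and 27 lower, against 45.5% and 40.4%. The median was -0.39 over the 39 genes and -0.03 over all genes under the OVA label, and -0.90 and 0.12 under the B16-F10 label. All 15 enzymes were lower in T cells under the B16-F10 label, and 13 of 15 under the OVA label, where Hk1 and Pfkp were higher. Both glucose transporters and Pfkfb3 were higher in T cells under both labels.

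Ldhb and Car9 had the lowest values in T cells relative to tumor cells. Ldhb averaged 8.09 ± 0.171 CPM in T cells and 146 ± 0.896 CPM in tumor cells under the OVA label, and 9.46 ± 0.937 and 547 ± 11.2 CPM under the B16-F10 label. The log2 fold changes of Ldhb were -4.04 (SE 0.04) and -5.61 (SE 0.03), and those of Car9 were -5.67 (SE 0.07) and -5.48 (SE 0.06). The level of Ldhb in T cells was 5.55% of that in tumor cells under the OVA label and 1.73% under the B16-F10 label, and that of Car9 was 1.79% and 1.90%. The melanoma cell markers stood in T cells at a median of 1.16% of their tumor cell level under each label, with ranges of 0.186% to 2.27% and 0.586% to 3.17%, and their part in the Ldhb and Car9 counts of T cells was not tested. Pfkfb3 was the highest gene on the T cell side under both labels, with log2 fold changes of 2.88 (SE 0.02) and 2.91 (SE 0.02). Next came Adm (1.45), Ankrd37 (1.42) and Slc2a3 (1.13) under the OVA label, and Ankrd37 (2.89), Ddit4 (2.80) and Ndrg1 (2.38) under the B16-F10 label. All 10 endothelial markers were higher in T cells under both labels, and of 8 fibroblast markers 5 were higher and 2 lower under the OVA label and 8 higher under the B16-F10 label. The part of these cells in the differences was not tested.

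Shares within a gene family do not change with library scaling, so they show which paralogue made up more of the family transcripts. Shares were computed from CPM per kilobase of exonic length. A family here holds only its paralogues among the 39 genes, so others such as Hk3 and Egln2 are left out. Egln2 averaged 38.9, 35.4, 41.8 and 38.1 CPM in OVA T cells, B16-F10 T cells, OVA tumor cells and B16-F10 tumor cells. Egln3 averaged 32.4, 16.2, 19.2 and 4.93 CPM in the same order. Ldhb made up 2.11% ± 0.0356 of the lactate dehydrogenase level in OVA T cells, 3.00% ± 0.315 in B16-F10 T cells, 21.5% ± 0.137 in OVA tumor cells and 45.6% ± 0.363 in B16-F10 tumor cells. Ldha thus made up most of the family in every group. Slc2a3 made up 18.0% ± 0.253 of the sum with Slc2a1 in OVA T cells and 8.68% ± 0.156 in B16-F10 T cells, and 11.1% ± 0.355 and 4.05% ± 0.272 in tumor cells of the OVA and B16-F10 labels. The share of Egln3 beside Egln1 was 43.4% ± 1.16 in OVA T cells, 28.5% ± 1.28 in B16-F10 T cells, 24.6% ± 1.53 in OVA tumor cells and 5.17% ± 0.360 in B16-F10 tumor cells.

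Pfkp and Pfkl shared most of the phosphofructokinase level in T cells, and Pfkl led in tumor cells. Pfkp made up 49.2% ± 0.846 in OVA T cells, 42.6% ± 0.315 in B16-F10 T cells, 24.9% ± 0.427 in OVA tumor cells and 15.4% ± 0.185 in B16-F10 tumor cells. Hk2 made up 38.8% ± 0.103 of the sum with Hk1 in OVA T cells and 27.8% ± 0.538 in B16-F10 T cells. In tumor cells of the OVA and B16-F10 labels it made up 64.9% ± 0.197 and 68.9% ± 0.180. With the length of the principal transcript in place of all exons, the Hk2 share in OVA tumor cells was 47.4%. Which of Hk1 and Hk2 led there thus depends on the length used. That length also gave Slc2a3 27.2%, 13.9%, 17.6% and 6.7% in the 4 groups in the order above, Pfkp 64.7%, 58.9%, 38.5% and 26.1%, and Ldhb 1.36%, 1.95%, 15.0% and 35.0%, with the same order of groups. Bnip3 made up 54.1% ± 0.244 beside Bnip3l in OVA T cells and 31.2% ± 0.790 in B16-F10 T cells, and 66.3% ± 1.02 and 69.0% ± 0.515 in tumor cells of the OVA and B16-F10 labels. None of the 10 families overlapped between labels within a fraction. The share of all genes without overlap was not computed, so nothing particular to the families is read from this. Of all genes tested, 42% were called higher and 37.4% lower in OVA tumor cells, and 23.7% and 22.4% in OVA T cells. Each of the 20 label comparisons had an exact two-sided permutation p = 0.1, before and after adjustment, the smallest that 3 libraries against 3 allow.

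**Figure D4:**
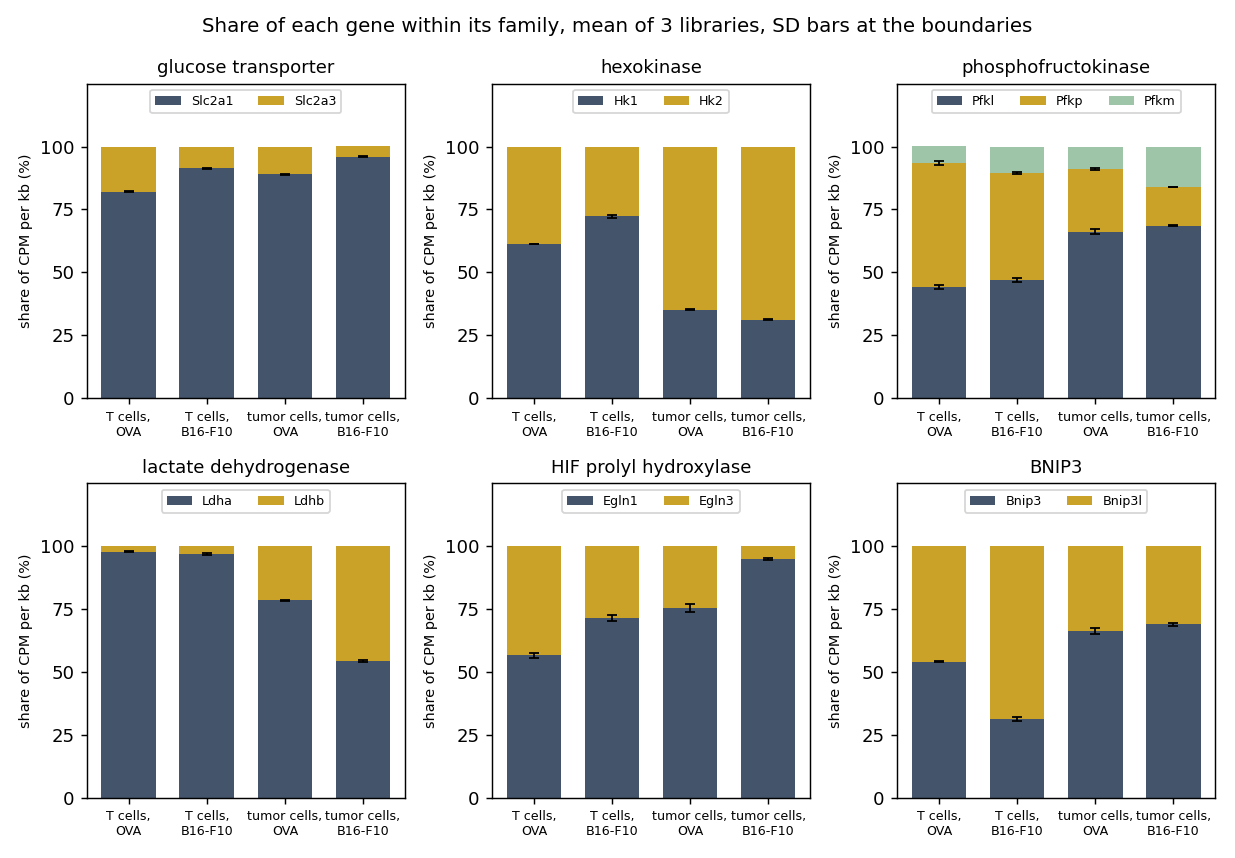
Share (%, y axis) of each paralogue in the summed CPM per kilobase of its family for 6 families, mean of 3 libraries per group, with SD bars at the boundaries. Ldhb reaches 45.6% in B16-F10 tumor cells and stays at or below 3.00% in both T cell groups, and Egln3 is lowest, at 5.17%, in B16-F10 tumor cells.

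The stacked shares by family show that the minor transporter Slc2a3 and the inducible hydroxylase Egln3 took larger shares under the OVA label in both fractions. For Hk2 and Bnip3 the share was larger under the OVA label in T cells and smaller in tumor cells.

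OVA tumor cells held fewer melanoma marker counts and more counts of other cells, so their libraries were also scaled to the summed melanoma cell markers. This moved the median of all genes by 1.05 on the log2 scale, and 96.0% of all called genes were then higher, against 52.9% under TMM. Of the 39 genes 34 were higher and 4 lower, namely Pfkm at -0.75, Aldoc at -0.86, Eno1 at -0.14 and Ldhb at -0.69, and Pfkl was not called. In these units tumor cells had 334 ± 0.452 counts of Gapdh per 1000 marker counts under the OVA label and 302 ± 2.85 under the B16-F10 label, a ratio of 1.11. Pfkfb3 had 23.8 ± 0.240 counts per 1000 marker counts under the OVA label and 2.78 ± 0.0677 under the B16-F10 label, and Slc2a3 had 5.59 ± 0.144 and 0.502 ± 0.0376. All 15 genes higher under TMM, Slc2a3, Egln3, Pfkfb3, Slc16a3, Ankrd37 and Ndrg1 among them, stayed higher. A nearly equal upward shift fixes that in advance, so it is no second check of them. Pfkm, Aldoc, Eno1 and Ldhb were lower under both scalings. The marker scaling takes melanoma marker expression per cell as equal in both labels, which these data do not show. It also scales counts from other cells by the melanoma markers and does not remove them. Macrophage markers summed to 1840 CPM in OVA tumor cells and 13.1 CPM in B16-F10 tumor cells. The part of such cells in the marker-scaled values was not tested.

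**Figure D5:**
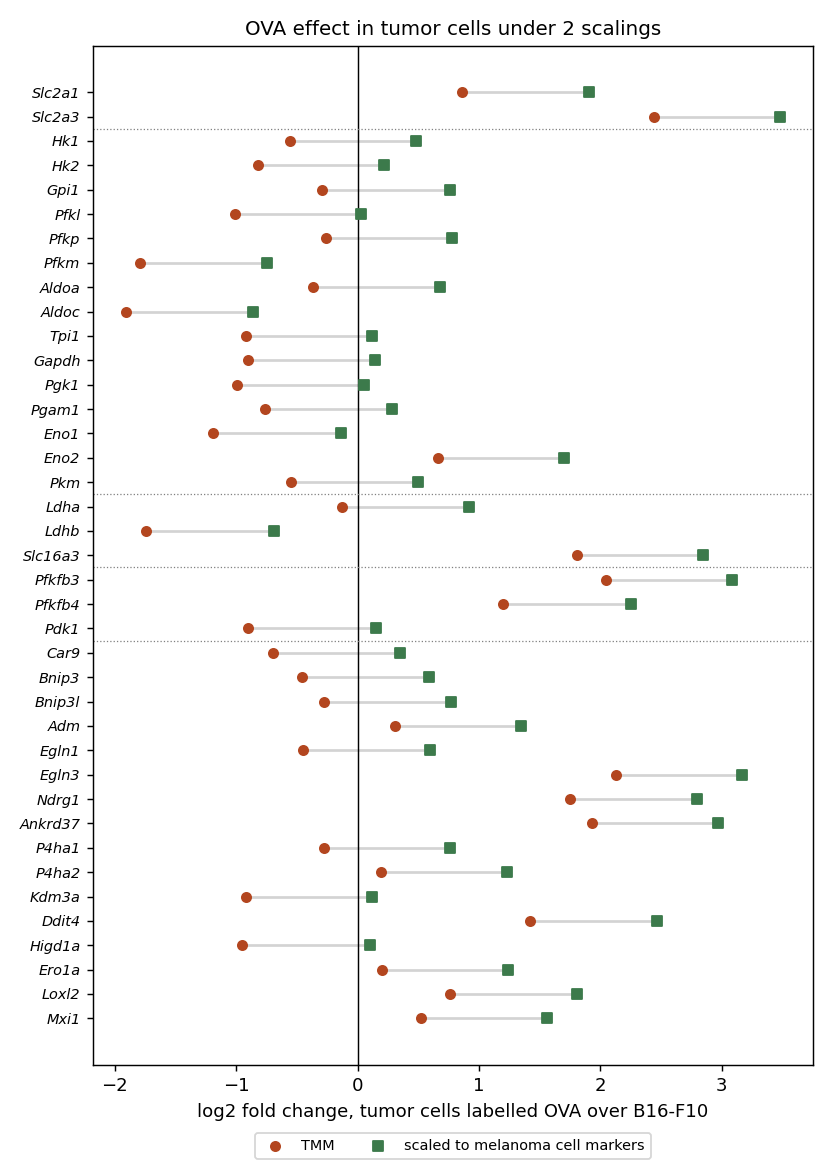
Log2 fold change of OVA tumor cells over B16-F10 (x axis) for each gene (rows), under TMM (circles) and under scaling to melanoma cell markers (squares). The shift is nearly the same for every gene, so 20 genes change sign, while Pfkm, Aldoc, Eno1 and Ldhb stay below 0 and 15 genes stay above it.

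Genes of the wider pathways were read from lists chosen alongside the 39, and their tumor cell values are under TMM scaling, with the shift of 1.05 not applied. Their counts stand beside the shares of all genes given above, 42% higher and 37.4% lower in OVA tumor cells and 23.7% and 22.4% in OVA T cells, and with so few genes a list nothing particular to a list is read from them. Of the 8 HIF factors and regulators tested in tumor cells, 3 were higher and 5 lower under the OVA label, and of 7 tested in T cells 5 were higher and 1 lower. Epas1, the HIF alpha subunit typical of endothelial cells, averaged 959 ± 0.951 CPM in OVA T cells, 972 ± 10.4 CPM in B16-F10 T cells, 388 ± 1.66 CPM in OVA tumor cells and 19.3 ± 0.918 CPM in B16-F10 tumor cells. Its order of groups is that of the endothelial marker sums, and the part of endothelial cells in it was not tested. Hif1a, the widely expressed alpha subunit, averaged 604 ± 7.60, 525 ± 4.59, 477 ± 3.73 and 428 ± 7.42 CPM in the same order, with log2 fold changes of 0.26 (SE 0.01) in T cells and 0.33 (SE 0.02) in tumor cells. Cited2, which competes with HIF for its coactivator, had 0.46 in T cells and -0.49 in tumor cells.

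Of 26 other hypoxia targets tested, 12 were higher and 11 lower in OVA tumor cells, and 11 were higher and 6 lower in OVA T cells. The tumor cell counts are near those shares. Hilpda, a lipid droplet protein, had log2 fold changes of -0.25 (SE 0.02) in T cells and 2.39 (SE 0.03) in tumor cells. Angptl4 averaged 278 ± 4.45 and 289 ± 1.06 CPM in T cells of the OVA and B16-F10 labels, and 112 ± 4.37 and 2.18 ± 0.183 CPM in tumor cells of the OVA and B16-F10 labels.

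Of 11 other isoforms of glycolytic genes tested in tumor cells 4 were higher and 5 lower under the OVA label, and of 10 tested in T cells 1 was higher, Hk3, and 1 lower, Eno3. Hk3, the hexokinase of myeloid cells, averaged 14.4 ± 0.584 CPM in OVA T cells, 5.92 ± 0.444 CPM in B16-F10 T cells, 35.3 ± 0.744 CPM in OVA tumor cells and 0.318 ± 0.119 CPM in B16-F10 tumor cells. Macrophage and neutrophil marker sums were also highest in OVA tumor cells. In T cells of the OVA and B16-F10 labels macrophage markers summed to 265 and 348 CPM, and neutrophil markers to 72.6 and 42.2 CPM. The part of myeloid cells in the Hk3 counts was not tested. Of 15 genes of pyruvate and lactate handling 3 were higher and 11 lower in OVA tumor cells, and 2 were higher and 2 lower in OVA T cells. Bsg, the chaperone of lactate transporters, had log2 fold changes of 0.21 (SE 0.02) in T cells and -0.76 (SE 0.01) in tumor cells. Pdk4, a kinase of pyruvate dehydrogenase, averaged 57.2 ± 0.960 CPM in OVA T cells and 32.0 ± 0.748 CPM in B16-F10 T cells, and had 0 counts in B16-F10 tumor cells.

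The pentose phosphate pathway, which branches off after hexokinase, had 3 of 7 genes higher and 4 lower in OVA tumor cells, and in OVA T cells Pgls was lower, at -0.29 (SE 0.05), and the other 6 were not called. Pgd, its second dehydrogenase, fell by 0.85 (SE 0.02) in tumor cells, at 117 ± 0.839 CPM under the OVA label and 237 ± 2.71 CPM under the B16-F10 label. Gluconeogenesis had 2 of 4 genes tested higher and 1 lower in OVA tumor cells, with Pck2, the mitochondrial PEP carboxykinase, at 0.91 (SE 0.03) in tumor cells and -0.24 (SE 0.05) in T cells. Of 9 regulators of glycolysis tested, 5 were higher and 3 lower in OVA tumor cells, and 4 were higher and 1 lower in OVA T cells. Txnip, an arrestin-like inhibitor of glucose uptake, averaged 363 ± 2.39 CPM in OVA T cells and 237 ± 3.62 CPM in B16-F10 T cells, a log2 fold change of 0.67 (SE 0.02). Myc, a driver of glycolytic genes, rose by 0.61 (SE 0.03) in the same comparison.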

How the data were processed

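The authors deposited raw counts per Ensembl gene, without normalization, in 1 table for the 12 libraries. Reads were aligned with HISAT2 2.0.5 and counted with featureCounts 1.6.0 on build GRCm39, per the submitters' processing notes. The annotation release, strand setting and treatment of multiply mapped reads are not given in the sources used here. The members and gene lists were chosen with earlier results of these data known.

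From the counts, edgeR 4.0.16 in R 4.3.3 was run with filterByExpr by group, TMM scaling and quasi-likelihood F tests, adjusted by Benjamini-Hochberg over all genes tested, threshold 0.05. OVA effects were fitted on 6 libraries and the other comparisons on all 12. SE was derived from the F statistic. The fitting was tested on simulated data in which as many genes were raised as lowered. That test cannot show how the scaling copes with libraries of unlike composition. CPM used library totals of 15494683 to 33263730 counts. Exonic lengths and overlaps came from a GRCm38 annotation, so lengths may differ from those of GRCm39. Named genes were the 4 highest and 4 lowest called members per comparison, fixed anchors among the members, and up to 4 genes per other list with the smallest adjusted p. The remaining members are given as well. Alternatives were other scalings, filters and tools (DESeq2 1.42.0, limma 3.58.1), a test against 1.5-fold, the replicate block and leaving out each library. Replicate pairs differed beyond counting noise, with chi-square per degree of freedom from 1.51 to 1.77. Each library counts once, though this spread does not show whether the libraries are from different mice.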

Additional observations from a re-analysis of the deposited data

Results flagged for a closer look

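For 37 genes the OVA effect in T cells differed from that in tumor cells by the edgeR test under TMM scaling. The difference is given here as T cells minus tumor cells on the log2 scale. Among the enzymes it was 1.09 for Hk1, 2.06 for Hk2, 0.33 for Gpi1, 1.29 for Pfkl, 0.83 for Pfkp, 1.5 for Pfkm, 0.65 for Aldoa and 2.75 for Aldoc. It was 1.28 for Tpi1, 1.49 for Gapdh, 1.29 for Pgk1, 1.08 for Pgam1, 1.93 for Eno1 and 0.85 for Pkm, and -0.93 for Eno2. The transporters Slc2a1 and Slc2a3 had -0.73 and -1.10. The lactate and control genes had 0.47 for Ldha, 1.57 for Ldhb, -1.71 for Slc16a3, -1.37 for Pfkfb4 and 0.82 for Pdk1.

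Hypoxia targets above 0 were Bnip3 at 1.90, Bnip3l at 0.34, Egln1 at 0.55, P4ha1 at 0.57, Kdm3a at 1.36 and Higd1a at 1.3. Those below 0 were Adm at -0.22, Egln3 at -1.08, Ndrg1 at -1.67, Ankrd37 at -1.47, P4ha2 at -0.22, Ddit4 at -1.88, Ero1a at -0.08, Loxl2 at -0.62 and Mxi1 at -0.76. DESeq2 did not call Adm, P4ha2 and Ero1a. Marker sums of other cell types moved with the OVA label in tumor cells, and their part in these differences was not tested. Melanoma marker scaling, which turned the tumor cell sign of 20 genes, was not applied to these differences. Their size and sign may therefore depend on the scaling.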

How the results depend on the processing

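Scaling tumor cells to melanoma markers gave 34 genes higher and 4 lower, and turned 20 signs: Hk1 0.48, Hk2 0.22, Gpi1 0.76, Pfkl 0.03, Pfkp 0.78, Aldoa 0.68, Tpi1 0.12, Gapdh 0.14, Pgk1 0.05, Pgam1 0.28, Pkm 0.50, Ldha 0.92, Pdk1 0.15, Car9 0.35, Bnip3 0.59, Bnip3l 0.77, Egln1 0.60, P4ha1 0.76, Kdm3a 0.12 and Higd1a 0.10. Library totals without TMM moved the median of all genes by -0.17 in the tumor cell OVA comparison and by -0.25 for T cells against tumor cells labelled B16-F10. They made 44.1% of calls higher in tumor cells labelled OVA, against 52.9%, and 38.8% in T cells labelled OVA, against 51.3%. With them Gpi1 was -0.01 in T cells, Bnip3l -0.11 and Mxi1 -0.10 for T cells against tumor cells labelled OVA, and the differences between OVA effects were 0.09 for Pfkfb3 and 0.03 for Ero1a. They also ended the tumor cell calls of Adm, P4ha2 and Ero1a, the T cell OVA calls of Slc16a3 (0.04), Bnip3l (0.01), Egln1 (0.05) and Ndrg1 (0.03), and the differences of Adm (-0.11) and P4ha2 (-0.10), and Pdk1 (-0.13) was then called in T cells. By edgeR's test against 1.5-fold, 14 genes were lower in tumor cells labelled OVA, 6 higher and 0 lower in T cells labelled OVA (29 and 5 without that minimum), and 17 lower in T cells against tumor cells labelled OVA. Of all genes, that test called 7035 of 17418, 1059 of 16536 and 7516 of 18562 in these comparisons. Of those calls 68.2%, 61.9% and 47.9% were higher. The causes were not tested.

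DESeq2 did not call Eno2, Bnip3l and Egln1 in the T cell OVA effect or Pfkfb4 for T cells against tumor cells labelled OVA, where it did call Bnip3l (0.13) and Mxi1 (0.14), nor the differences of Adm (-0.17), P4ha2 (-0.16) and Ero1a (-0.03). Median-ratio size factors ended the same Pfkfb4 call and the differences of Adm and Ero1a, limma-voom and the absence of a low-count filter each ended Bnip3l in T cells and the Adm difference, and the last also the Ero1a difference. Leaving out 1 library changed 7 single calls and no count of calls by over 1.5 times. In the T cell OVA effect, Bnip3l lost its call, at 0.05 to 0.08, without any T cell library but B16-F10 replicate 2. Egln1 was 0.10 and 0.08, and Eno2 -0.24 and -0.22, without OVA replicate 3 and without B16-F10 replicate 2. Gpi1 was 0.04 without B16-F10 replicate 1. Pfkfb4 was -0.24 for T cells against tumor cells labelled OVA without T cell OVA replicate 3. The difference for Ero1a was lost without T cell OVA replicate 3 (-0.04), B16-F10 replicate 1 (-0.05) or 3 (-0.06), and that for Adm without 9 of 12 libraries (-0.27 to -0.16 over all 12).

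Libraries of the same number did not deviate together: over genes, r was -0.0315, 8.92e-06 and 0.0605 in the T cell OVA comparison and -0.000217, -0.00085 and 0.0152 in tumor cells, and not every library correlated best with its own number. With the replicate block 28 genes were higher in T cells labelled OVA and 13 differences were lower, since Bnip3l (0.07, edgeR adjusted p = 0.0508) and Adm (-0.22, 0.0574) lost their calls. Other counts with the replicate block were unchanged, at 15 and 24 in tumor cells. Depth limits Car9 in T cells, at 1.11 CPM under the OVA label.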
